A study of Mus musculus with 6 samples.

Results

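Astrocytes are joined to each other by gap junctions and wrap the vessels and the surface of the brain with flattened processes called endfeet. Their gap junctions are built from connexins, which pass ions and small metabolites from cell to cell. At the endfoot membrane the water channel aquaporin-4 is held in place by the dystrophin complex, which reaches through dystroglycan to the basement membrane, and neighbouring membrane proteins control cell volume and pH. In the cerebellum these genes are used by the Bergmann glia that surround Purkinje cells as well as by the astrocytes of the granular layer and white matter.

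The genes described here are 8 genes of this system, chosen by symbol and with earlier results of these data known. The connexin genes are Gja1 and Gjb6, the water channel gene is Aqp4, and the bicarbonate cotransporter gene is Slc4a4. The endfoot adhesion and anchoring genes are Mlc1, Hepacam, Dag1 and Dtna. All of these genes are described below. The 8 genes are among the 48709 genes of a deposited count table, and all 8 were among the 16699 genes with enough counts to be tested. The table holds bulk RNA sequencing of whole cerebellum from C57BL/6J mice aged 40 weeks. It has 3 wild-type samples and 3 samples from SCA7 knock-in mice, labelled 140Q/5Q and Kihet, with 140 glutamines encoded by the long allele and 5 by the short allele of Atxn7. SCA7, spinocerebellar ataxia type 7, is an inherited disease caused by expansion of this repeat. The labels do not say whether each sample was 1 animal, so the p-values below measure the spread between these samples.

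Libraries held 39528292 to 49127673 counts in wild type and 34630391 to 39826478 in knock-in. The level of a gene is given as CPM, its counts relative to the TMM-scaled library size, and a gene was called changed at an edgeR quasi-likelihood adjusted p at or under 0.05 over all 16699 genes. By this rule 318 genes (1.9%) were called, 213 lower (1.28%) and 105 higher (0.629%). With library size in place of TMM the calls were 190 lower and 323 higher. Atxn7 itself had 25.9, 26.2 and 22.6 CPM in wild type against 22.4, 24.0 and 22.1 CPM in knock-in (adjusted p 0.521), and counts per gene do not separate its alleles. Brainstem markers summed to 16.0 to 21.9 CPM in wild type but to 70.8, 14.8 and 42.1 CPM in knock-in replicates 1, 2 and 3.

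Of the 8 genes, 3 fell in knock-in (Gja1, Aqp4 and Slc4a4), 5 did not pass the test and 0 rose, against the 1.28% of all tested genes called lower. The groups did not overlap for these 3 genes, which held for 23.8% of all tested genes in either direction and for 11.5% with knock-in lower. The median log2 fold change of the 8 was -0.19, beside 0.01 for all tested genes. Their summed level was 2365 to 2529 CPM in the wild-type libraries and 1866 to 2118 CPM in the knock-in libraries, without overlap. This sum weighs abundant genes most, and Slc4a4 and Aqp4 had the highest CPM of the 8. For the 5 genes that did not pass, the groups overlapped. In whole tissue, fewer astrocytes and less RNA of a gene per astrocyte cannot be told apart.

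The connexins come first, and the stretches of DNA just before the starts of their genes are shown because 1 of these genes passed the test and the other did not. They are 250 bases from RefSeq promoter windows (build GRCm38.p6), each read in the direction of its gene and each free of annotated exons of that gene. Capitals mark the motif TGANTCA, read on both strands, which is bound by AP-1 factors. It was found once, starting 19 bases before the RefSeq start of Gja1 on which its window is set. The gene coordinates given below are from GENCODE M21, in which Gja1 starts at 56377330. The Gja1 stretch is chr10:56377050-56377299 on the plus strand, with a GC content of 50%, and the Gjb6 stretch is chr14:57133612-57133861 on the minus strand, with 56.8%.
Gja1: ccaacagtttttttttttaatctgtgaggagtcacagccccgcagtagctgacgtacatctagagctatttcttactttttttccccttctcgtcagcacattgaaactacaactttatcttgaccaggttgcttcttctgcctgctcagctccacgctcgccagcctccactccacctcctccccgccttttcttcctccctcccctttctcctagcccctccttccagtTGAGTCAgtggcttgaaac
Gjb6: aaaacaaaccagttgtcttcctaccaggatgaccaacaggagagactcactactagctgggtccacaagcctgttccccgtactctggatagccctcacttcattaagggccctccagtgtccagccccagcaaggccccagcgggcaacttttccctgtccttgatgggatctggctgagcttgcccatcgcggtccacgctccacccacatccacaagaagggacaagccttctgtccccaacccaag
The same motif was present in 6.7% of all 32851 promoter windows over their 250 upstream bases, and in 1 of 8 windows of the 6 genes looked at here (all but Aqp4 and Dtna). Neither connexin stretch held TTGGC, a motif of nuclear factor I, or ACAAT, a core bound by SOX factors, which 41.5% and 27.7% of all upstream stretches held. Over the upstream bases of the 8 windows, TTGGC was in 6 and ACAAT in 0. A match is a description of the letters and not evidence of binding.

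Gja1 encodes a connexin found widely in astrocytes (ENSMUSG00000050953, chromosome 10, 56377330 to 56402513, plus strand, mm10). Its level was 296, 306 and 306 CPM in the wild-type libraries and 213, 224 and 211 CPM in the knock-in libraries. The groups lay far apart for their spread, with SDs of 5.92 and 6.82 CPM (n = 3 each) around means of 303 and 216 CPM. Gja1 fell by 0.49 on the log2 scale (SE 0.069, 95% interval -0.64 to -0.33), to 71.3% of wild type, with an edgeR adjusted p of 0.0107. The call was lost without wild-type replicate 3, knock-in replicate 1 or knock-in replicate 3, at edgeR adjusted p-values of 0.0559, 0.0908 and 0.0512, while the log2 fold change stayed between -0.52 and -0.47 with each of the 6 libraries left out.

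Gjb6 encodes another astrocyte connexin (ENSMUSG00000040055, chromosome 14, 57123303 to 57133611, minus strand), 43 Mb from Atxn7 on the same chromosome. It had 109, 102 and 111 CPM in wild type against 87.2, 109 and 93.0 CPM in knock-in. Knock-in replicate 2 lay inside the wild-type range and replicates 1 and 3 lay below it. The log2 fold change was -0.15 ± 0.094 (SE; 95% interval -0.36 to 0.06), with an edgeR adjusted p of 0.424.

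The connexin pair was also compared within each library. The log2 ratio of Gjb6 to Gja1 was -1.45, -1.58 and -1.46 in wild type against -1.29, -1.04 and -1.18 in knock-in. All 3 knock-in ratios were above all 3 wild-type ratios, a difference of 0.33 in favour of Gjb6. The 2-sided exact permutation p was 0.10, the smallest that 3 against 3 samples allow, and 0.17 after adjustment over the 5 gene pairs compared, so this test could not have passed 0.05 with these samples. Per kilobase of merged exon, Gja1 (29.5 CPM per kb) was the lower of the pair in wild type, beside 40.1 CPM per kb for Gjb6. The merged exons were 10.3 kb for Gja1 and 2.7 kb for Gjb6. They cover all isoforms of a gene, so this order depends on the length assigned to each.

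**Figure D1:**
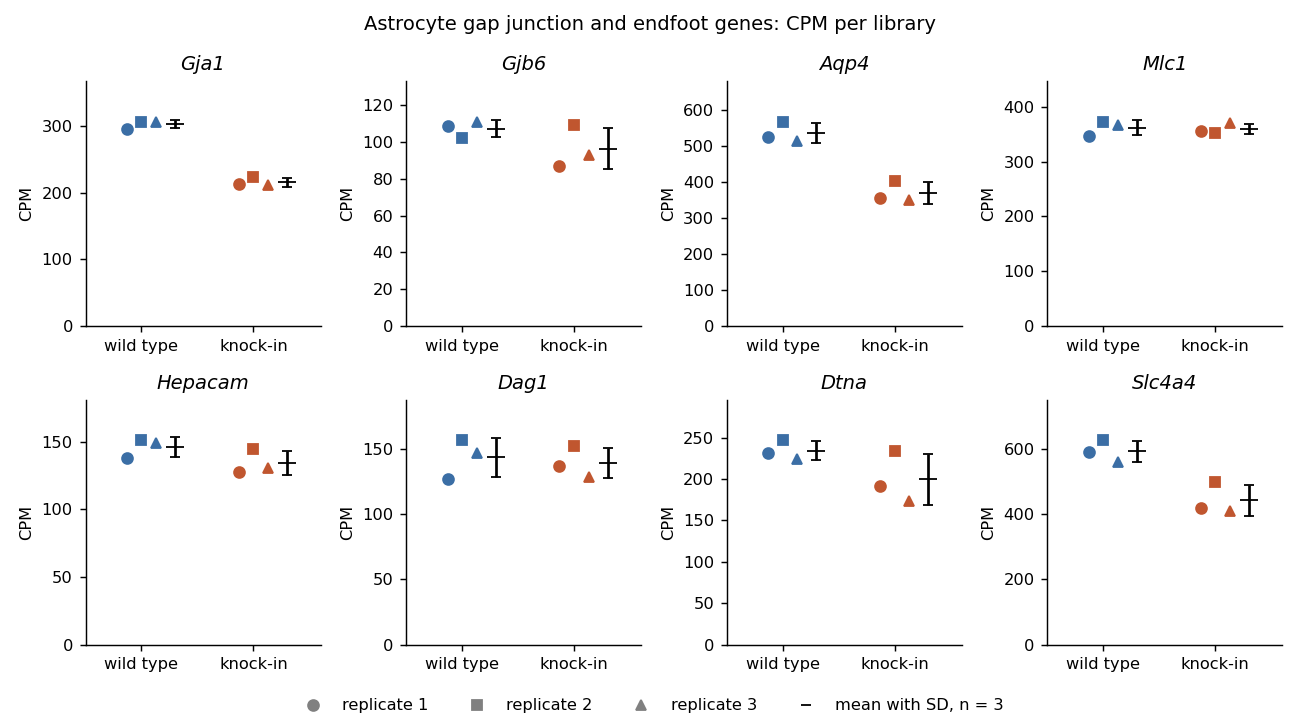
CPM of each of the 8 genes (vertical axes from 0, a scale of its own for each gene) in the 3 wild-type libraries (blue) and the 3 knock-in libraries (orange). Symbols give the replicate number and the black marks the mean with SD (n = 3). The groups are apart for Gja1, Aqp4 and Slc4a4 and overlap for the other 5 genes, and knock-in replicate 2 is the highest knock-in library for all but Mlc1.

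Among other connexin and pannexin genes, 10 of 21 had enough counts to be tested, and 1 was lower and 0 higher (median log2 fold change 0.10). The one that fell was Gjc3, a connexin of oligodendrocytes, with 119, 108 and 103 CPM in wild type against 81.2, 80.7 and 79.4 CPM in knock-in. Its log2 fold change was -0.45 ± 0.079 (edgeR adjusted p 0.0226). Gjb1, a connexin of oligodendrocytes that can couple with those of astrocytes, had a log2 fold change of 0.21 ± 0.108 (edgeR adjusted p 0.334). Gjb2, a connexin of the leptomeninges and of some astrocytes, had 9.11 and 7.16 CPM on average (edgeR adjusted p 0.279).

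Aqp4 encodes the main water channel of the brain, concentrated on the endfoot membrane (ENSMUSG00000024411, chromosome 18, 15389496 to 15410982, minus strand). Its 526, 567 and 512 CPM in wild type stood against 356, 403 and 349 CPM in knock-in. Even the highest knock-in library, replicate 2, was below the lowest wild-type library. The mean fell from 535 ± 28.3 to 369 ± 29.8 CPM (SD, n = 3 each), by 0.54 on the log2 scale (SE 0.083, 95% interval -0.72 to -0.35), to 69% of wild type, with an edgeR adjusted p of 0.0151. Of the 6 fits with 1 library left out, the call was kept without knock-in replicate 2 (edgeR adjusted p 0.00327) and lost in the other 5. Leaving out wild-type replicate 1, 2 or 3 gave an edgeR adjusted p of 0.065, 0.0634 or 0.0516, and leaving out knock-in replicate 1 or 3 gave 0.103 or 0.0657. Fold changes in these fits ran from -0.61 to -0.49 on the log2 scale.

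Dag1 and Dtna, which encode parts of the complex that anchors aquaporin-4 at the endfoot, showed smaller differences. Dag1 encodes the precursor of alpha- and beta-dystroglycan, the link from the dystrophin complex to laminin and agrin (ENSMUSG00000039952, chromosome 9, 108204634 to 108263958, minus strand). It had 127, 156 and 147 CPM in wild type against 137, 152 and 129 CPM in knock-in, fully interleaved. Its log2 fold change was -0.04 ± 0.097 (95% interval -0.26 to 0.17, edgeR adjusted p 0.849).

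Dtna encodes alpha-dystrobrevin, a cytoplasmic partner of dystrophin and the syntrophins (ENSMUSG00000024302, chromosome 18, 23415135 to 23659715, plus strand). Its levels were 231, 247 and 225 CPM in wild type against 192, 234 and 173 CPM in knock-in. Replicates 1 and 3 of knock-in were below every wild-type library, and replicate 2 was among them. The log2 fold change was -0.23 ± 0.107 (95% interval -0.47 to 0.01, edgeR adjusted p 0.289). Without knock-in replicate 2 it was -0.36 and passed the test (edgeR adjusted p 0.0376), and with the replicate number as a block the adjusted p was 0.0373. An annotated antisense gene overlaps 90 of the 16930 exon bases of Dtna.

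Aqp4 was also set against these partners within each library. The log2 ratio of Aqp4 to Dag1 was 2.05, 1.86 and 1.80 in wild type against 1.38, 1.41 and 1.44 in knock-in, a difference of -0.49. That of Aqp4 to Dtna was 1.18, 1.20 and 1.19 against 0.89, 0.79 and 1.01, a difference of -0.30. Both pairs of groups were without overlap, with an exact permutation p of 0.10 and an adjusted value of 0.17. By contrast the log2 ratio of Aqp4 to Gja1 was 0.83, 0.89 and 0.74 in wild type against 0.74, 0.85 and 0.72 in knock-in (difference -0.05, exact permutation p 0.50, adjusted 0.50).

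Among the other dystrophin complex genes 15 of 15 were tested, and 0 were higher and 0 lower at the edgeR threshold (median log2 fold change 0.00). Sgcb, a sarcoglycan and the most abundant of them per kilobase, had means of 68.8 and 73.7 CPM (edgeR adjusted p 0.526). Dmd, which encodes dystrophin, had 68.0, 68.6 and 59.8 CPM in wild type against 55.4, 56.0 and 45.6 CPM in knock-in. Its groups were apart, but it did not pass (edgeR adjusted p 0.137).

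Of 16 genes for matrix proteins that bind or neighbour dystroglycan 0 were called (median 0.13). Agrn, which encodes agrin of the basement membrane, had means of 39.3 and 50.7 CPM with an edgeR adjusted p of 0.0984. Of 16 genes for the enzymes that put the laminin-binding sugar chain on dystroglycan, 1 was lower and 0 higher (median 0.03).

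Mlc1 and Hepacam encode an endfoot protein pair: Hepacam, also called GlialCAM, is an adhesion molecule that brings the membrane protein Mlc1 to astrocyte junctions, and defects in either cause a leukodystrophy with brain swelling. Mlc1 (ENSMUSG00000035805, chromosome 15, 88955884 to 88979007, minus strand) had 346, 372 and 367 CPM in wild type against 355, 353 and 370 CPM in knock-in. The values interleave, and the log2 fold change was -0.01 ± 0.071, with a 95% interval of -0.17 to 0.15 (edgeR adjusted p 0.959). That interval does not reach the fitted falls of Gja1, Aqp4 or Slc4a4.

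Hepacam (ENSMUSG00000046240, chromosome 9, 37367351 to 37386575, plus strand) had 138, 151 and 149 CPM in wild type against 128, 145 and 131 CPM in knock-in. Knock-in replicates 1 and 3 were below all wild-type libraries, replicate 2 was not, and the log2 fold change was -0.12 ± 0.080 (95% interval -0.30 to 0.06, edgeR adjusted p 0.469). The log2 ratio of Mlc1 to Hepacam was 1.33, 1.30 and 1.30 in wild type against 1.47, 1.29 and 1.50 in knock-in. These ratios overlap through replicate 2 of knock-in (difference 0.11, exact permutation p 0.40, adjusted 0.50).

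Slc4a4 encodes the electrogenic sodium bicarbonate cotransporter, which carries bicarbonate into astrocytes as they depolarise and so couples their pH to neuronal activity (ENSMUSG00000060961, chromosome 5, 88886818 to 89239653, plus strand). It had 591, 627 and 561 CPM in wild type against 419, 498 and 410 CPM in knock-in. All knock-in libraries were below all wild-type libraries, with replicate 2 the closest. The mean fell from 593 ± 32.7 to 442 ± 48.8 CPM (SD, n = 3 each), by 0.42 on the log2 scale (SE 0.092, 95% interval -0.63 to -0.22), to 74.6% of wild type. At an edgeR adjusted p of 0.0484 it lay just inside the threshold, and with DESeq2 size factors in the same test the adjusted p was 0.0544. Leaving out wild-type replicates 1, 2 or 3 or knock-in replicates 1 or 3 gave edgeR adjusted p-values of 0.153, 0.144, 0.104, 0.199 and 0.183, and leaving out knock-in replicate 2 gave 0.00659. The log2 fold change ran from -0.52 to -0.36 over these 6 fits.

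None of the other 10 genes of the same transporter family was called in the edgeR fit (0 higher, 0 lower, median -0.07). Slc4a10, a neuronal sodium bicarbonate transporter and the most abundant of them per kilobase, had 293, 277 and 280 CPM in wild type against 252, 261 and 240 CPM in knock-in. Those groups were apart, but the edgeR adjusted p was 0.237.

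A wider list of 18 glial genes for potassium, sodium, water and volume control held 3 lower and 0 higher genes (median log2 fold change -0.15). Kcnj10, the potassium channel that shares the endfoot with aquaporin-4, had 398, 390 and 414 CPM in wild type against 282, 314 and 257 CPM in knock-in. It fell by 0.49 on the log2 scale (SE 0.086, edgeR adjusted p 0.0222). Car2, a cytosolic carbonic anhydrase of glia that makes the bicarbonate used by transporters such as Slc4a4, fell from 295.6 to 207.3 CPM (edgeR adjusted p 0.0183). Partners of Mlc1 and Hepacam that did not pass were Clcn2, a chloride channel with means of 42.5 and 49.4 CPM (edgeR adjusted p 0.237), and Gpr37l1, an orphan receptor of astrocytes with 830 and 769 CPM (edgeR adjusted p 0.574).

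**Figure D2:**
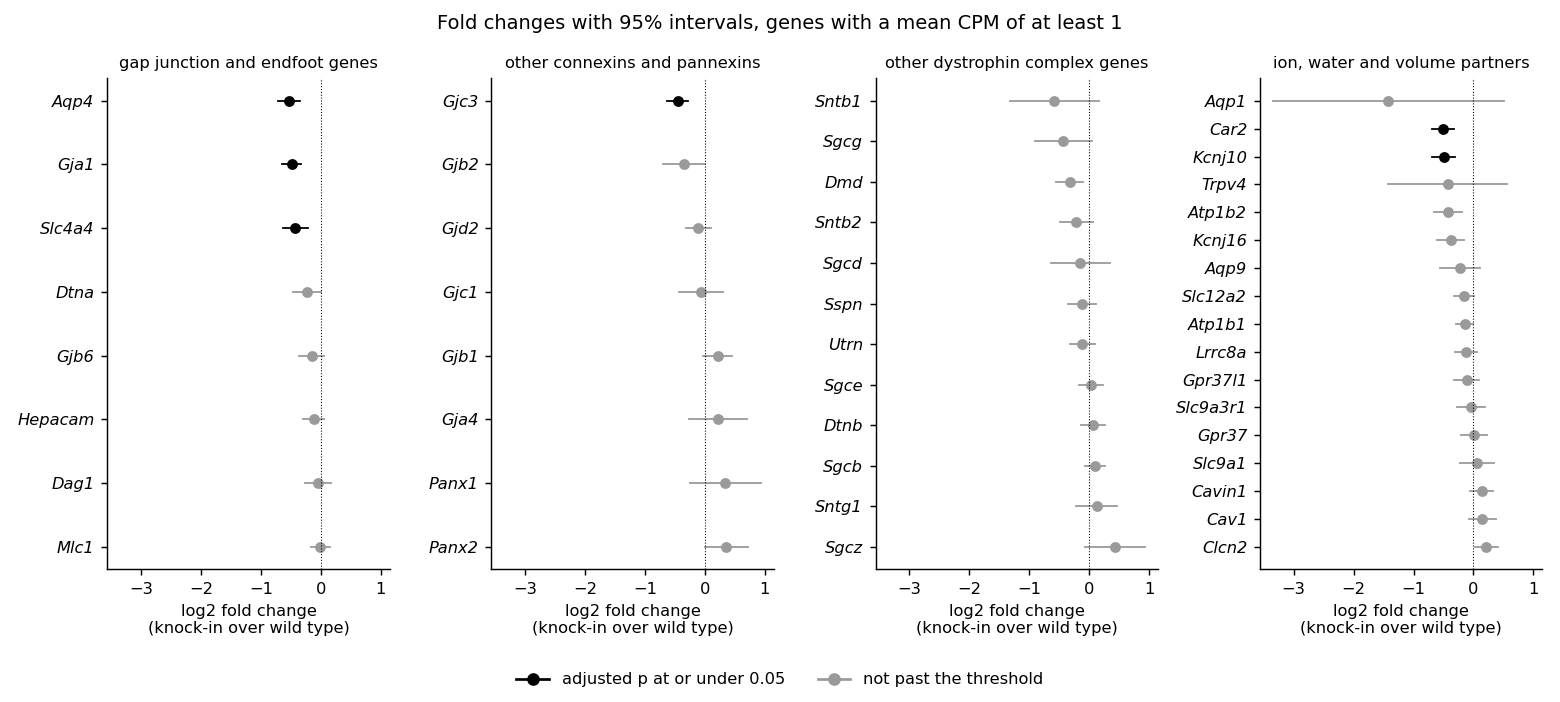
Log2 fold changes (horizontal axes, knock-in over wild type, points) with 95% intervals (lines) for the 8 genes and 3 related lists, drawn where the mean CPM was 1 or more. Black marks genes with an edgeR adjusted p at or under 0.05: 3 of the 8 genes, Gjc3 among other connexins, 0 of the dystrophin complex genes, and Kcnj10 and Car2 among the partners. Some genes of the lists are not drawn.

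Levels can be compared between genes only per length. In wild type the order by CPM per kb of merged exon was Mlc1 (129 ± 4.93), Aqp4 (85.8 ± 4.55), Slc4a4 (54.8 ± 3.02), Hepacam (43.6 ± 2.13), Gjb6 (40.1 ± 1.71), Gja1 (29.5 ± 0.577), Dag1 (22.6 ± 2.35) and Dtna (13.8 ± 0.667; mean ± SD, n = 3). Hepacam and Gjb6 overlapped between libraries and the other neighbours did not. In knock-in Mlc1 (128 ± 3.42 CPM per kb) remained the highest and Aqp4 (59.2 ± 4.78) followed it. Slc4a4 (40.9 ± 4.51), Hepacam (40.1 ± 2.7) and Gjb6 (36.1 ± 4.23) then overlapped. Gja1 (21.1 ± 0.665) overlapped with Dag1 (21.9 ± 1.84), which it had exceeded in every wild-type library. Merged exons of all isoforms can make genes with long merged exons, such as Dtna and Gja1, look lower than any 1 transcript would.

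Whether the falls exceed those of astrocyte genes at large was examined with 18 general astrocyte markers. Of these, 2 were lower and 0 higher (median log2 fold change -0.23): Slc1a2, a glutamate transporter, and Fam107a, an actin-associated protein, at -0.63 ± 0.113 and -0.56 ± 0.099 on the log2 scale (edgeR adjusted p 0.0239 and 0.0236). The 10 Bergmann glia markers had 1 lower gene, A2m, a protease inhibitor (-0.56 ± 0.098, edgeR adjusted p 0.0232), and a median of -0.25. Their summed levels did not overlap between groups either, with 9296 to 9500 CPM in wild type against 7209 to 8173 CPM in knock-in for the general markers, and 2099 to 2156 against 1713 to 1936 CPM for Bergmann glia. Of the 18 general markers, 15 had a log2 fold change under 0, as did 48.7% of all tested genes. Knock-in was lower without overlap for 8 of the 18 and higher without overlap for 0. These patterns held for 11.5% and 12.3% of all tested genes. S100b, a calcium-binding protein of astrocytes, had equal means of 890 CPM (log2 fold change 0 ± 0.071, SE).

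Each gene was then set against the mean log2 CPM of the 18 markers in the same library. Aqp4 stood 1.49, 1.46 and 1.32 above it in wild type against 1.15, 1.14 and 1.04 above it in knock-in (difference -0.31), and Gja1 0.66, 0.57 and 0.58 against 0.41, 0.29 and 0.32 (difference -0.26). Slc4a4 differed by -0.20, with its lowest wild-type and highest knock-in libraries both at 1.45 when rounded. Mlc1, at 0.89, 0.86 and 0.84 in wild type against 1.14, 0.95 and 1.13 in knock-in, differed by 0.21 in the other direction, as did Dag1 by 0.18 and Hepacam by 0.10. These 6 genes each had groups without overlap and an exact permutation p of 0.10, the smallest possible, or 0.13 after adjustment over the 8 genes. Gjb6 and Dtna differed by 0.06 and -0.02 (exact permutation p 0.40 and 0.80). With Slc1a2 and Fam107a left out of the reference the differences were -0.36 for Aqp4, -0.31 for Gja1, -0.25 for Slc4a4, 0.17 for Mlc1 and 0.13 for Dag1, but only 0.056 for Hepacam, 0.017 for Gjb6 and -0.064 for Dtna. In an edgeR fit scaled to these markers, in which the median of all tested genes moved to 0.23, Aqp4 remained called (log2 fold change -0.31, adjusted p 0.0319), while Gja1 (-0.26, adjusted p 0.0584) and Slc4a4 (-0.20, adjusted p 0.148) were not.

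**Figure D3:**
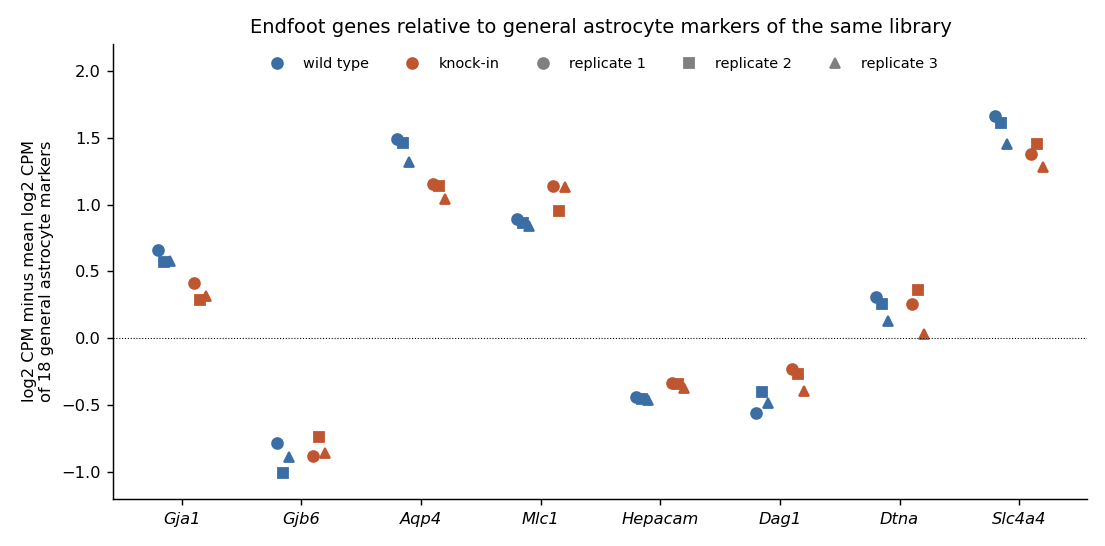
Log2 CPM of each gene minus the mean log2 CPM of 18 general astrocyte markers in the same library (vertical axis), for wild type (blue) and knock-in (orange), with a symbol for each replicate number. Aqp4, Gja1 and Slc4a4 sit lower in knock-in, by 0.31, 0.26 and 0.20, and Mlc1, Dag1 and Hepacam sit higher, by 0.21, 0.18 and 0.10.

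Markers of other cells that touch endfeet or share these genes moved as follows. Of 12 endothelial markers 0 were called (median -0.08, summed level 541 to 571 CPM in wild type against 513 to 581 CPM in knock-in), with Slc2a1, the glucose transporter of vessels, at an edgeR adjusted p of 0.343. Of 10 pericyte and smooth muscle markers 0 were called (median -0.08, 286 to 336 against 263 to 308 CPM), with Vtn, vitronectin, at 0.411. Of 10 leptomeningeal markers 0 were called (median 0.00, 174 to 262 against 146 to 231 CPM), with Igfbp2, a growth factor binding protein, at 0.643. Choroid plexus and ependymal markers, 0 of 11 called, summed to 519 to 1915 CPM in wild type against 35.7 to 1335 CPM in knock-in. Most of this was transthyretin (Ttr), except in knock-in replicate 2, where Ttr had 2.59 CPM. Knock-in replicate 2 had only 35.7 CPM of these markers, and its Gja1, Aqp4 and Slc4a4 levels were the highest of the knock-in group. In wild type, replicate 3 had the most of these markers, 1915 CPM. Its Aqp4 and Slc4a4 levels (512 and 561 CPM) were the lowest of wild type, but its Gja1 level (306 CPM) was not. The part of choroid plexus tissue in the falls was not tested.

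Purkinje cell markers had 8 of 13 lower, among them Rgs8, Gng13 and Car8, and summed to 13810 to 15480 CPM in wild type against 8981 to 10840 CPM in knock-in. Granule neuron markers had 2 of 12 lower, Cbln3 and Chn2 (summed 6246 to 6900 against 4964 to 5947 CPM). Of 10 oligodendrocyte markers 1 was lower (summed 7234 to 9548 against 7312 to 7638 CPM), and of 9 microglia markers 0 were called in the edgeR fit. Purkinje and granule neuron markers, which define cerebellar cortex, were abundant in every library. The part of any of these cell types in the falls of the endfoot genes was not tested. Brainstem markers had a median log2 fold change of 2.99, the largest of the lists. Of the 7 tested, 0 were called and 1 had a log2 fold change under 0 (Th, at -0.19, edgeR adjusted p 0.713). Of these 7, 3 were higher in all knock-in than in all wild-type libraries, which held for 12.3% of all tested genes. The mean log2 CPM of the 7 markers was 2.50 and 1.49 in knock-in replicates 1 and 3 and -0.13 in replicate 2. In wild type it was -1.33 to 0.09. The mean of replicate 2 thus lay within the wild-type range, although those 3 markers were above it there too. Gja1, Aqp4 and Slc4a4 had 224, 403 and 498 CPM in replicate 2, below every wild-type library, and the part of brainstem tissue in their falls was not tested. With the brainstem level as a covariate, which is partly confounded with genotype, 3 genes were called in all and none of the 8: log2 fold changes were -0.45 for Gja1, -0.47 for Aqp4 and -0.32 for Slc4a4.

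Base composition and length also moved with the result. Across all tested genes, which are not independent replicates, GC-rich genes tended to have higher log2 fold changes (Spearman rho 0.32) and long genes lower ones (rho -0.22). The 3 genes that fell had the lowest GC contents of the 8 (Aqp4 41.4%, Gja1 42.2% and Slc4a4 45.9%), followed by Dtna (46.1%), while Gjb6, Mlc1, Dag1 and Hepacam had 49.6% to 53.3%, beside a median of 49.57% for tested genes. With offsets for GC content and length fitted in each library, Gja1, Aqp4 and Slc4a4 were still called, at log2 fold changes of -0.40, -0.49 and -0.32 (edgeR adjusted p 0.00753, 0.00858 and 0.0279). Dtna went from -0.23 to -0.09 (edgeR adjusted p 0.504).

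**Figure D4:**
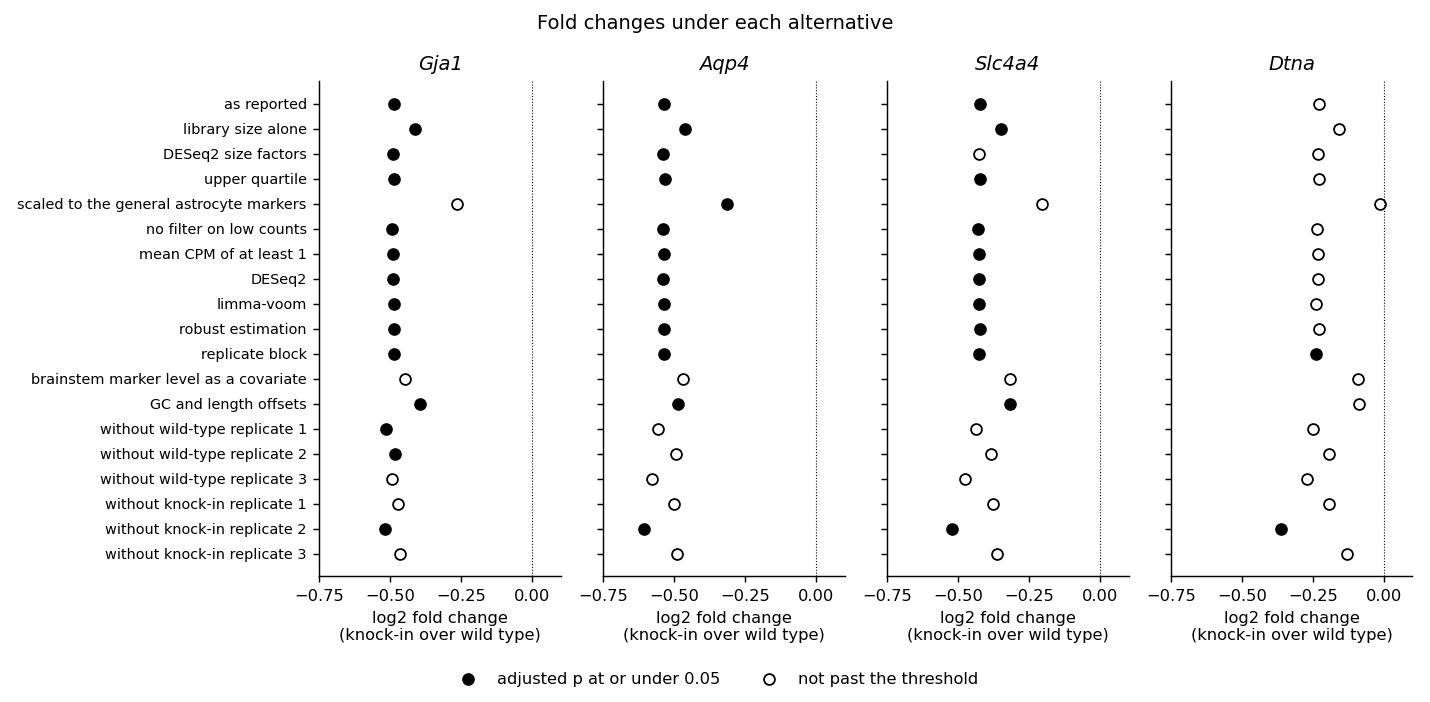
Log2 fold changes (horizontal axes, knock-in over wild type) of Gja1, Aqp4, Slc4a4 and Dtna as reported and under 18 alternatives, 1 per line. Filled points have an adjusted p at or under 0.05 over all genes tested: 13 of 18 alternatives for Gja1, 12 for Aqp4, 10 for Slc4a4 and 2 for Dtna, with all points below 0.

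The genes whose profile over the 6 libraries was most like the average standardized profile of the 8 genes, among 8208 named genes with 20 CPM or more on average, were Lrrc8a, Stx16, Kcnc1, Svil and Pcdhac2. Their Pearson r over these 6 libraries was 0.991 to 0.995, given as a description, since many genes share 2 groups and 6 depths. Lrrc8a, a subunit of the volume-regulated anion channel, had 26.0, 28.1 and 27.0 CPM in wild type against 24.0, 26.2 and 24.1 CPM in knock-in. None of the 5 was called (edgeR adjusted p 0.106 to 0.741). The average profile was highest in wild-type replicate 2 (0.96) and lowest in knock-in replicates 1 and 3 (-0.96 and -0.87), and knock-in replicate 2 (0.08) was close to wild-type replicate 1 (0.11).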

How the data were processed

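The authors deposited raw read counts per Ensembl gene for 6 cerebellum samples; per the submitters' processing notes they used TopHat2 2.0.14, Bowtie2 2.1.0, HTSeq 0.6.1 and mm10, and per the labels' protocols the libraries were stranded and made from polyadenylated RNA. Which annotation release and strand setting were used is not given in the sources used here. GENCODE M21 gave symbols for 48349 of 48709 identifiers.

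Counts were tested in R 4.3.3 with edgeR 4.0.16 (filterByExpr with minimum count 10 and minimum total 15, TMM, quasi-likelihood F test on genotype, Benjamini-Hochberg adjustment). SE is the absolute log2 fold change divided by the square root of F. Ratios used log2 CPM with a prior count of 2 and 2-sided exact permutation tests. GC content is that of a gene's longest transcript. On simulated counts of this comparison (16455 genes run) the test called 63% of 100 genes changed 1.5-fold and 88% of 100 changed 2-fold, and 10% of its calls were unchanged genes. Library pairs within groups differed by more than sampling noise (chi-square per degree of freedom 14.08 to 30.51). Alternatives used other scalings and filters, DESeq2 1.42.0, limma 3.58.1 (voom), covariates, a replicate block and each library left out.

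The genes and lists were chosen with earlier results of these data known. By rule the text names all 8 genes, up to 4 called genes by adjusted p from each related list or else its most abundant gene per kilobase, and the 5 genes most like the 8. Gjb1, Gjb2, Dmd, Agrn, Clcn2, Gpr37l1 and S100b were chosen after their values were seen. A few genes picked by this rule are not reported here; list counts include them.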

Additional observations from a re-analysis of the deposited data

How the results depend on the processing

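Gja1, Aqp4, Slc4a4 and Dtna kept a negative fold change under all 18 alternatives run for each. The 318 calls became 513 with library size alone, 3249 when scaled to the general astrocyte markers, 1303 with no filter on low counts, 936 with DESeq2, 713 with GC and length offsets and 3 with the brainstem covariate. They ranged from 39 to 858 with 1 library left out. Of the 8 genes 3 were called; scaled to astrocyte markers it was 1, with the brainstem covariate 0, and with 1 library left out between 0 and 4. The cause was not tested, except that fewer samples entered the last of these.

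With the replicate number as a block 2034 genes and 4 of the 8 were called, Dtna being added. Deviations of equally numbered libraries correlated at 0.00, 0.17 and 0.32. Wild-type replicates 2 and 3 correlated best with the knock-in library of the same number, and wild-type replicate 1 with knock-in replicate 2 (0.10). As the match did not hold for every replicate, the numbers were not taken to pair the samples.

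Signs turned only in genes that were not called. With library size alone Mlc1 was 0.065 and Dag1 0.030. Scaled to astrocyte markers Gjb6 was 0.063, Mlc1 0.217, Hepacam 0.103 and Dag1 0.181, and with the brainstem covariate Gjb6 was 0.074. With 1 library left out Mlc1 ran from -0.052 to 0.009, Dag1 from -0.135 to 0.020, and Dtna over the astrocyte markers from -0.087 to 0.074. Counts of at least 3222 per library make counting error small for these genes, and the 3 samples per group limit the precision.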
